A study of Mus musculus with 19 samples.

Results

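The 8 genes described here encode the 3 chains of the interleukin-2 receptor (Il2ra, Il2rb and Il2rg) and 5 receptor chains that work with the common gamma chain (Il15ra, Il4ra, Il7r, Il9r and Il21r). They were taken by gene name from non-control probes of a whole mouse genome array, and they make up 8 of the 20620 genes tested and 11 of the 55681 probes. Messenger RNA from sorted CD4 T cells of spleen and lymph nodes was measured on 19 one-colour arrays. The mice were adult females on a C57Bl/6 background with the genotype Tg IL-2-GFP x FOXP3mRFP, so every group carried both reporters. The groups were GFP+RFP+ cells (4 arrays, replicates 1, 3, 4 and 5), GFP-RFP+ cells (5 arrays), GFP+RFP- cells (5 arrays) and GFP-RFP- cells (5 arrays). RFP marks expression of Foxp3, the transcription factor of regulatory T cells (Treg), and GFP marks expression of IL-2, a T cell growth factor. The series title asks how both kinds of cell are related. The subtype labels call RFP+ cells regulatory, while a cell type tag calls all 19 samples conventional. The labels name neither the promoter of either reporter nor separate animals or pools behind the replicates. The p-values therefore reflect variation among these arrays, part of which may be technical.

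The common gamma chain, encoded by Il2rg, pairs with a private chain for each of the cytokines IL-4, IL-7, IL-9 and IL-21, and with the IL-2 receptor beta chain for IL-2 and IL-15. The alpha chains Il2ra and Il15ra have no kinase partner and raise the affinity for their cytokine. Signals pass through JAK1, bound to the private or beta chain, and JAK3, bound to the gamma chain, to STAT factors. In CD4 T cells Il2ra is a standard surface marker of Treg, which depend on IL-2, and Il7r is high on naive and memory cells and low on most Treg.

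The probes are shown because the 2 receptors with the smallest errors, Il15ra and Il4ra, were each measured by 1 probe with a run of TG repeats and 1 probe without it. Stretches of 30 bases of each 60-base probe follow, with the run of TG repeats in capitals. The brighter Il15ra probe lies at position 1277 of its transcript (chr2:11655416-11655475, plus strand, mm9) and its run is 17 bases long. The dimmer one lies at position 724 (chr2:11654809-11654868, plus strand). For Il4ra, the brighter probe lies at position 466 (chr7:132712550-132712609, plus strand) with a run of 12 bases, and the dimmer one at position 5027 (chr7:132722922-132722981, plus strand).
Il15ra, brighter probe: tatgtaTGTGTGTGTGTGTGTGTatgtaaa
Il15ra, dimmer probe: aaaccatggaaacagtaccaatgactgtga
Il4ra, brighter probe: tgccagcacTGTGTGTGTGTGccacatgga
Il4ra, dimmer probe: acctgttgggaattccaaccctcaccagtc

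The other receptors had no such run. Il2ra was measured at chr2:11614744-11614803 (plus strand), Il2rb at chr15:78311109-78311168 (minus strand) and Il2rg at chrX:98460130-98460189 (minus strand). Il7r was measured at chr15:9435976-9436035 (minus strand) and Il21r at chr7:132776725-132776784 (plus strand). Il9r had 2 probes, at chr11:32089002-32089061 and chr11:32090499-32090558 (both minus strand). These coordinates are those of the files. No probe of the 8 genes was saturated on any array.

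The arrays differed in total signal along the Foxp3 reporter. Between 26.1% and 38.1% of probes were well above background on GFP+RFP+ arrays, 22% to 39.4% on GFP-RFP+ arrays, 30.2% to 41.1% on GFP+RFP- arrays and 37.8% to 44.9% on GFP-RFP- arrays. The 75th percentile of the scanner signal, computed from the 6612 probes that every array detected well above background, averaged 12.51 on the log2 scale on RFP+ arrays and 13.73 on RFP- arrays. Its difference was -1.19 between GFP-RFP+ and GFP-RFP- arrays and -1.25 between GFP+RFP+ and GFP+RFP- arrays (exact permutation tests, p = 0.016 each, adjusted p = 0.085 over 16 tests). Replicates of a group correlated at r = 0.55 to 0.75 over the 28101 probes kept. Levels below are log2 scanner signals relative to this percentile of the same array, so a level of 0 equals the percentile; a level describes 1 probe and is not compared between genes. In sorted bulk samples, fewer expressing cells and less RNA per cell cannot be told apart.

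The genes behind the reporters were checked first. All 19 arrays detected Foxp3 above background, and its level ran from -7.33 to -5.49 in GFP+RFP+ cells, from -8.64 to 0.25 in GFP-RFP+ cells, from -8.41 to -6.89 in GFP+RFP- cells and from -8.5 to -7.34 in GFP-RFP- cells. The RFP+ and RFP- groups overlapped, and the averaged RFP+ minus RFP- difference of 2.03 ± 0.80 (SE) did not pass the test in limma (adjusted p = 0.1). Il2 was detected above background on 1 of 4 arrays in GFP+RFP+ cells, 0 of 5 in GFP-RFP+ cells, 2 of 5 in GFP+RFP- cells and 2 of 5 in GFP-RFP- cells. Of the 8 T cell markers, Cd3d, Cd3g, Cd4, Cd5 and Lck were above background on all 19 arrays. Cd2 was detected on 3 of 4 arrays in GFP+RFP+ cells, 5 of 5 in GFP-RFP+ cells, 4 of 5 in GFP+RFP- cells and 5 of 5 in GFP-RFP- cells. Cd3e was detected on 3, 3, 4 and 5 of these arrays and Cd28 on 3, 1, 4 and 5, in GFP+RFP+, GFP-RFP+, GFP+RFP- and GFP-RFP- cells.

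Il2ra, the alpha chain of the high-affinity IL-2 receptor, was near background on most arrays. Its level was -8.18, -2.04, -10.68 and -4.33 in the GFP+RFP+ replicates and -9.81, -10.12, -3.43, -11.06 and -10.87 in the GFP-RFP+ replicates. It was -10.72, -11.33, -9.02, -10.97 and -4.53 in GFP+RFP- cells and -10.08, -5.64, -11.03, -11.47 and -11.53 in GFP-RFP- cells. Every group held arrays near background and at least 1 array well above it, so the groups overlapped. Those above background numbered 2 of the 4 arrays in GFP+RFP+ cells and 1 of 5 in each of the other groups. GFP+RFP+ cells were 3.01 ± 1.96 (SE) above GFP+RFP- cells, with a 95% interval from -1.14 to 7.15 (limma, adjusted p = 0.436). GFP-RFP+ cells were 0.89 ± 1.85 above GFP-RFP- cells (95% interval -3.01 to 4.80, adjusted p = 0.814). The averaged RFP+ minus RFP- difference was 1.95 ± 1.35 (limma, adjusted p = 0.343). Of the other processing settings, 1 called it, normexp background correction (adjusted p = 0.0312). That setting called 7827 of the 20620 genes, 86.1% of them as higher.

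Il2rb, the beta chain shared by the receptors of IL-2 and IL-15, was well above background on all 19 arrays. Its level was 1.22, 0.74, 2.56 and 2.52 in GFP+RFP+ cells and 2.28, -3.57, 2.06, 2.16 and 0.89 in GFP-RFP+ cells. It was 1.18, 1.66, 1.74, 1.76 and 1.5 in GFP+RFP- cells and -0.40, 1.54, 1.16, -0.50 and 1.26 in GFP-RFP- cells. The lowest array by far was GFP-RFP+ replicate 2, the array groups overlapped in each of the 4 pairwise comparisons, and GFP+RFP- replicates lay closest together. The group mean was 1.76 ± 0.92 (SD, n = 4) in GFP+RFP+ cells, 0.76 ± 2.49 (n = 5) in GFP-RFP+ cells, 1.57 ± 0.24 (n = 5) in GFP+RFP- cells and 0.61 ± 0.98 (n = 5) in GFP-RFP- cells. Averaged over GFP, RFP+ minus RFP- cells gave 0.17 ± 0.66 (SE; 95% interval -1.21 to 1.56, limma adjusted p = 0.886). For the IL-2 reporter the difference was 0.96 ± 0.90 in RFP- cells and 1.00 ± 0.95 in RFP+ cells, neither past the test (adjusted p = 1 and 0.929).

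Il2rg, the common gamma chain itself, was either bright or at background. In GFP+RFP+ cells the level was -1.32, -10.25, -10.75 and 0.31, and in GFP-RFP+ cells 1.80, -10.25, 0.05, 1.08 and -10.48. In GFP+RFP- cells it was 0.34, -0.90, 0.37, -11.22 and -0.81, and in GFP-RFP- cells -0.44, 0.01, -0.78, -0.34 and 0.76. No array lay between: the 14 arrays above background had signals of 1660 to 19682 units, and the 5 others had 2.95 to 5.07 units. Those 5 were 2 of 4 GFP+RFP+ arrays, 2 of 5 GFP-RFP+ arrays, 1 of 5 GFP+RFP- arrays and 0 of 5 GFP-RFP- arrays. Where Il2rg was bright, its level overlapped between all groups. Among the 721 genes with a median level within 0.5 of that of Il2rg, 5.69% were above background on as few arrays or fewer, and 50.1% were above background on all arrays. Averaged over GFP, the RFP+ minus RFP- difference was -3.23 ± 2.13 (SE), with a 95% interval from -7.72 to 1.26 (limma, adjusted p = 0.317).

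**Figure D1:**
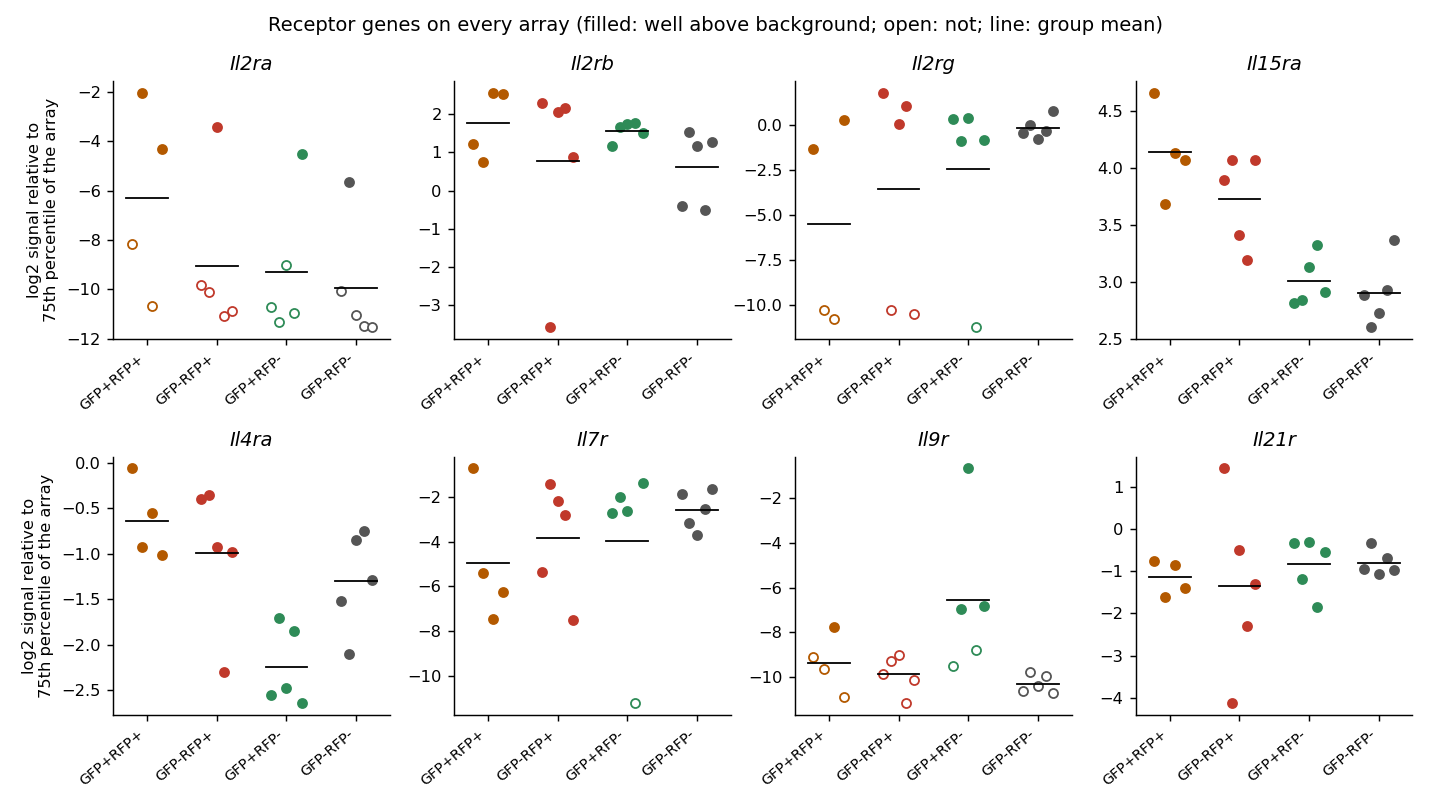
Log2 level of the 8 receptor genes on every array, relative to the 75th percentile of the array, by reporter group. Filled points are well above background, open points are not, and lines are group means; Il2rg splits into arrays near 0 and arrays below -10, and Il2rb and Il21r are lowest on GFP-RFP+ replicate 2.

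Il15ra, the high-affinity alpha chain that presents IL-15, was the 1 receptor gene that passed the test in any comparison of the main analysis. The level of its brighter probe was 4.66, 3.68, 4.13 and 4.07 in GFP+RFP+ cells and 3.89, 4.07, 3.41, 3.19 and 4.07 in GFP-RFP+ cells. In GFP+RFP- cells it was 2.81, 2.84, 3.13, 3.32 and 2.91, and in GFP-RFP- cells 2.88, 2.60, 2.72, 2.93 and 3.37. All GFP+RFP+ values lay above all GFP+RFP- values, while the lowest GFP-RFP+ value lay below the highest GFP-RFP- value. The averaged RFP+ minus RFP- difference was 0.98 ± 0.23 (SE; 95% interval 0.48 to 1.48, limma adjusted p = 0.0157). That comparison called 13.2% of all genes tested, and 8.61% as higher, so 1 of 8 receptors called is close to the background share. Within the single comparisons the difference was 1.13 ± 0.34 for GFP+RFP+ against GFP+RFP- cells (adjusted p = 0.128) and 0.83 ± 0.32 for GFP-RFP+ against GFP-RFP- cells (adjusted p = 0.153).

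Without scaling, Il15ra was not higher in RFP+ cells. The scanner signal of the brighter probe was 75231 to 104793 units on GFP+RFP+ arrays, 64361 to 124827 on GFP-RFP+ arrays, 77485 to 109690 on GFP+RFP- arrays and 103973 to 120301 on GFP-RFP- arrays. It spanned 1.94-fold over the 19 arrays, and its RFP+ minus RFP- difference in log2 signal was -0.24, against -1.22 for the percentile of the arrays. On the unscaled signal the difference was -0.12 for GFP+RFP+ against GFP+RFP- arrays and -0.36 for GFP-RFP+ against GFP-RFP- arrays (exact permutation tests, p = 0.44 and 0.17). After quantile normalization the averaged difference was 0.12 (limma, adjusted p = 0.723), and on the authors' deposited log2 table it was also 0.12 (adjusted p = 0.733). The dimmer Il15ra probe, above background on all 19 arrays at 35.5 to 1382 units, averaged -6.58 ± 0.82 (SD, n = 4) in GFP+RFP+ cells, -6.72 ± 0.69 (n = 5) in GFP-RFP+ cells, -5.98 ± 1.65 (n = 5) in GFP+RFP- cells and -6.54 ± 0.67 (n = 5) in GFP-RFP- cells. With that probe in place of the other, the averaged difference was -0.39 (limma, adjusted p = 0.632). The levels of both probes correlated at r = -0.07 over the 19 arrays.

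**Figure D2:**
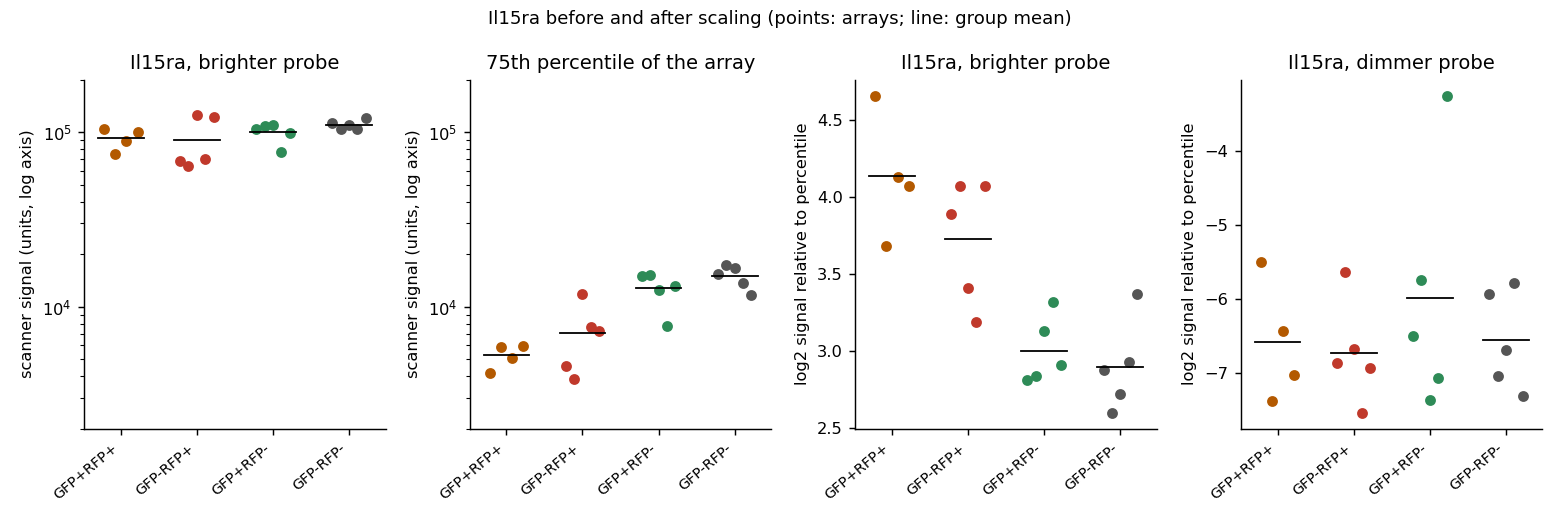
Il15ra by reporter group, 1 point per array with group means as lines: scanner signal of the brighter probe and 75th percentile of the array (log axes, units), then the log2 level of the brighter and of the dimmer probe relative to that percentile. The unscaled signal of the brighter probe overlaps between all groups, and the percentile is lower on RFP+ arrays (12.51 against 13.73 on the log2 scale).

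Il4ra, which pairs with the gamma chain to bind IL-4, had the next smallest p in that averaged comparison and missed the threshold. The level of its brighter probe was -0.06, -0.93, -0.55 and -1.01 in GFP+RFP+ cells and -0.40, -0.35, -0.92, -2.30 and -0.98 in GFP-RFP+ cells. In GFP+RFP- cells it was -2.55, -1.71, -2.48, -1.85 and -2.64, and in GFP-RFP- cells -1.52, -2.10, -0.85, -0.75 and -1.29. All 4 GFP+RFP+ values lay above all 5 GFP+RFP- values, and the other groups overlapped. GFP+RFP+ cells were 1.61 ± 0.45 (SE) above GFP+RFP- cells (95% interval 0.65 to 2.57, limma adjusted p = 0.119), in a comparison that called 0.204% of genes. Il4ra and Il15ra were the 2 receptors whose GFP+RFP+ and GFP+RFP- arrays did not overlap, as was the case for 7.8% of all genes. GFP-RFP+ cells were 0.31 ± 0.43 above GFP-RFP- cells (adjusted p = 0.703), and the interaction of both reporters was 1.30 ± 0.62 (adjusted p = 0.999). The averaged RFP+ minus RFP- difference was 0.96 ± 0.31 (limma, adjusted p = 0.0504). It was called with quantile normalization (1.75, adjusted p = 0.00538) and on the authors' deposited log2 table (1.40, adjusted p = 0.00697). Those settings called 5247 and 5456 of the 20620 genes. On the unscaled log2 signal the averaged difference was -0.26, so its direction turned. The unscaled difference was -0.88 for GFP-RFP+ against GFP-RFP- arrays and 0.36 for GFP+RFP+ against GFP+RFP- arrays (exact permutation tests, p = 0.056 and 0.21).

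For the IL-2 reporter, the GFP+RFP- minus GFP-RFP- difference of Il4ra was -0.95 ± 0.43 (SE; limma, adjusted p = 0.969); this comparison called 0.0097% of genes. Its unscaled signal was 2111 to 4684 units on GFP+RFP- arrays, against 4027 to 9284 units on GFP-RFP- arrays, a log2 difference of -1.20 (exact permutation test, p = 0.016, adjusted p = 0.085). The dimmer Il4ra probe cleared background on 0 of 4 arrays in GFP+RFP+ cells, 0 of 5 in GFP-RFP+ cells, 3 of 5 in GFP+RFP- cells and 2 of 5 in GFP-RFP- cells, and with it the averaged RFP+ minus RFP- difference was -0.05 (adjusted p = 0.971). Over the 19 arrays the levels of both Il4ra probes correlated at r = 0.02.

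The repeat in the brighter Il15ra and Il4ra probes occurs on other probes too. The motif TGTGTGTGTGTG was found on 115 of the 55681 probes (0.207%) and its reverse complement ACACACACACAC on 55 (0.0988%), each searched in the probe sequence as listed. Of the 170 probes with either motif, which do not overlap between motifs, 168 (98.8%) were well above background on all 19 arrays, against 11.9% of all probes. The share above background on all arrays was 10.3% of probes whose longest run of TG or AC units was 2 units, 21.6% at 3 units, 62.3% at 4 units, 92.5% at 5 units and 98.4% at 6 or more units. The averaged RFP+ minus RFP- difference was above 0 for 170 of 170 probes with the motif, from 0.56 to 2.02 with a median of 1.02. The median was -0.13 over the 28101 probes kept and 0.32 over the 6612 probes detected on every array. In GFP+RFP+ against GFP+RFP- cells the medians were 1.12 for probes with the motif and 0.18 for all probes kept, while GFP-RFP+ minus GFP-RFP- cells gave 0.94 and -0.35. On the unscaled log2 signal the median averaged difference was -0.20 over probes with the motif, the opposite sign, and -1.35 over all probes kept. After quantile normalization of the probes kept, it was 0.15 over probes with the motif and 0.28 over all probes kept. The quantile normalization of the fits used all probes, so these medians are not on the same scale as the fits. Of the 170 genes tested on such a probe, 155 were called in the averaged comparison. The part of the repeat in the Il15ra and Il4ra differences was not tested.

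**Figure D3:**
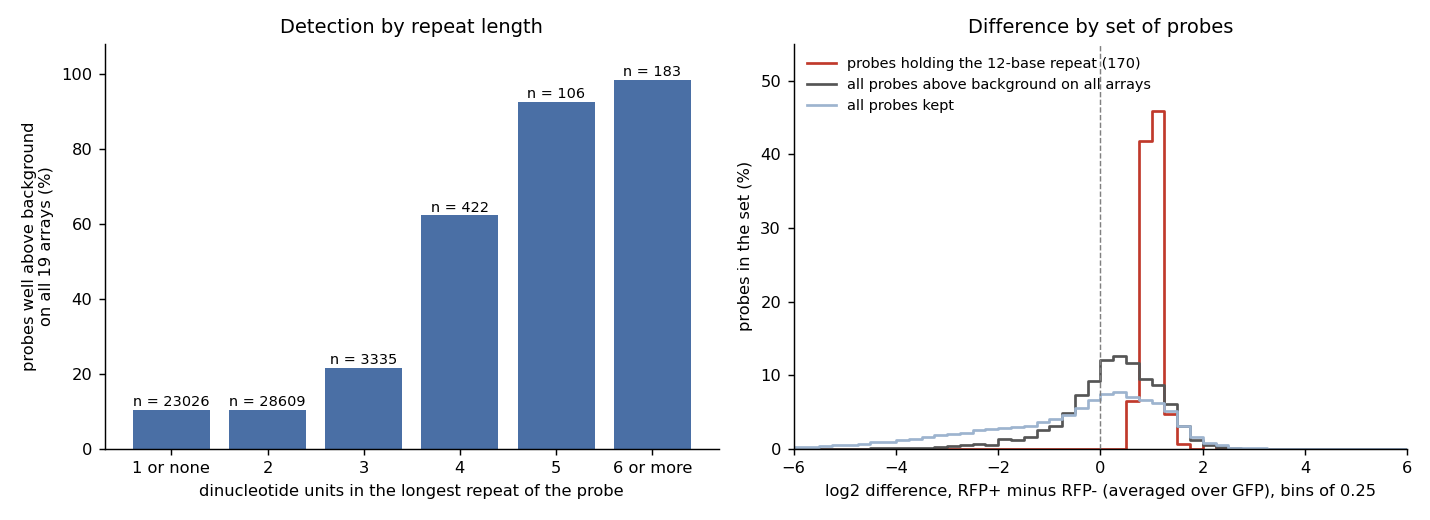
Share of probes well above background on all 19 arrays (percent) by the number of dinucleotide units in the longest TG or AC run of the probe, and the distribution of the averaged RFP+ minus RFP- log2 difference for probes with the 12-base repeat, probes above background on all arrays and all probes kept. Detection runs from 10.3% at 2 units to 98.4% at 6 or more, and the 170 probes with the repeat all lie above 0, around a median of 1.02.

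Il7r, the alpha chain of the IL-7 receptor, was above background on 18 of 19 arrays and spread widely. Its level was -0.71, -5.39, -7.46 and -6.25 in GFP+RFP+ cells and -5.34, -1.39, -2.16, -2.80 and -7.52 in GFP-RFP+ cells. In GFP+RFP- cells it was -2.72, -2, -2.62, -11.22 and -1.35, and in GFP-RFP- cells -1.85, -3.16, -3.71, -2.55 and -1.65. Levels below -5 were found on 3 of 4 GFP+RFP+ arrays, 2 of 5 GFP-RFP+ arrays, 1 of 5 GFP+RFP- arrays and 0 of 5 GFP-RFP- arrays, and every pair of groups overlapped. The cut at -5 was not set in advance, and the share of all genes with such a split was not counted. Among the 988 genes with a median level within 0.5 of that of Il7r, 60.7% were above background on as few arrays or fewer. The array at -11.22, GFP+RFP- replicate 4, was not well above background for Il7r or for Il2rg, each at 3.26 units. RFP+ minus RFP- cells, averaged over GFP, differed by -1.12 ± 1.25 (SE; 95% interval -3.76 to 1.52, limma adjusted p = 0.579).

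Il9r, the private chain of the IL-9 receptor, was above background on 4 of 19 arrays with its first probe. In GFP+RFP- cells its level was -9.51, -6.95, -0.67, -8.79 and -6.84, against -10.60, -9.79, -10.41, -9.95 and -10.70 in GFP-RFP- cells. GFP+RFP- replicates 2, 3 and 5 were above background at this probe and no GFP-RFP- replicate was, so Il9r passed the 4-array filter through these 3 arrays and 1 in GFP+RFP+ cells. The values of both groups did not overlap, as was the case for 2.4% of all genes, but GFP+RFP- replicates 1 and 4 were themselves not above background (20.6 and 17.5 units, against 19.5 units on GFP-RFP- replicate 2), and values below background have no order. For a fold, GFP-RFP- arrays were set to their lowest signal among probes above background, or to the probe's own signal if higher. Against these the GFP+RFP- mean was 7.5-fold. That is not a lower bound, since GFP+RFP- replicates 1 and 4 entered at their own signals, which were not above background. The fitted difference was 3.74 ± 1.19 (SE) and did not pass the test (limma, adjusted p = 0.731). Replicate 3, at 7910 units, carried much of it, and without that array the difference was 2.27 (adjusted p = 0.747). The second Il9r probe was above background on GFP+RFP- replicates 1 and 3 and, at 1171 units, on GFP-RFP- replicate 3. Its level averaged -8.38 ± 3.88 (SD, n = 5) in GFP+RFP- cells and -9.42 ± 3.18 (n = 5) in GFP-RFP- cells, within the spread of the replicates, and the probes shared 1 array above background, GFP+RFP- replicate 3.

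In RFP+ cells Il9r stayed near background. The first probe cleared background on 1 of 4 arrays in GFP+RFP+ cells, replicate 4 at 23.2 units, and on 0 of 5 in GFP-RFP+ cells. The GFP+RFP+ minus GFP-RFP+ difference was 0.53 ± 1.26 (SE; limma, adjusted p = 0.962), in a comparison that called 0.00485% of genes.

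Il21r, the private chain of the IL-21 receptor, was above background on all 19 arrays. Its level was -0.75, -1.61, -0.85 and -1.39 in GFP+RFP+ cells and 1.43, -4.12, -0.49, -2.30 and -1.31 in GFP-RFP+ cells. In GFP+RFP- cells it was -0.33, -1.18, -0.31, -1.84 and -0.56, and in GFP-RFP- cells -0.96, -0.33, -1.07, -0.69 and -0.97. GFP-RFP+ cells held both the highest and the lowest array, and all groups overlapped. In the averaged comparison RFP+ minus RFP- cells gave -0.43 ± 0.53 (SE; 95% interval -1.55 to 0.69, limma adjusted p = 0.62).

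Read by comparison, 0 of 8 receptors were called for GFP-RFP+ against GFP-RFP- cells, where limma called 1.7% of genes. For GFP+RFP+ against GFP+RFP- cells, for both comparisons of the IL-2 reporter and for the interaction, which called 0.0097% of genes, 0 of 8 were called as well. At an unadjusted p under 0.05 the receptors were Il15ra in GFP-RFP+ against GFP-RFP- cells, Il15ra, Il4ra and Il9r in GFP+RFP+ against GFP+RFP- cells, Il9r and Il4ra in GFP+RFP- against GFP-RFP- cells, and Il15ra and Il4ra in the averaged comparison. The shares of all genes at that p were 22.6%, 17.4%, 5.14% and 30.9% in these 4 comparisons. Il9r entered the test through 3 GFP+RFP- arrays and 1 GFP+RFP+ array. Its p against or for GFP+RFP- cells is therefore not independent of the filter and gives no support. The GFP+RFP+ minus GFP+RFP- difference of Il9r was -2.80 ± 1.26 (SE; limma, adjusted p = 0.264). The median difference over the 8 receptors was -0.13 in the averaged comparison, against -0.08 over all genes tested, with 4 above 0 and 4 below. No receptor had GFP-RFP+ arrays clear of all GFP-RFP- arrays (6.68% of genes did) or GFP+RFP+ arrays clear of all GFP-RFP+ arrays (1.01% of genes). The comparisons share arrays with each other.

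**Figure D4:**
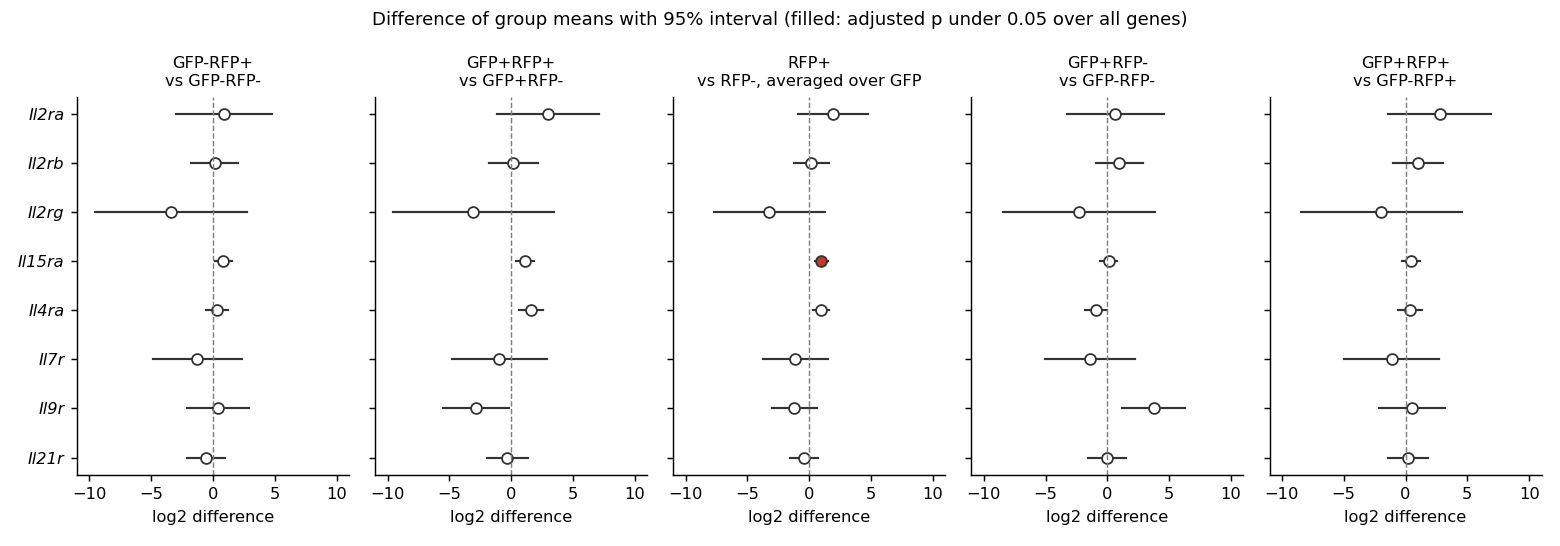
Log2 difference of group means for the 8 receptor genes in 5 comparisons, with 95% intervals as lines. The filled point, Il15ra averaged over GFP (0.98), is the 1 difference past the adjusted threshold of 0.05, and the intervals of Il2rg and Il2ra span several log2 units in every panel.

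Genes most like each receptor over the 19 arrays were sought for the 5 receptors above background on at least 15 arrays, among 4761 named genes. Il15ra was most like Gxylt2 and Serpinb8 (Pearson r = 0.99 each), and the probes of both hold the 12-base repeat, with runs of 8 and 7 units. Il4ra was most like Prl8a8 (r = 0.90), whose probe has a run of 3 units, and Abca17 (r = 0.87), whose probe holds the repeat. Il2rb was most like Tomm22 and Rbm39 (r = 0.86 each), which dropped to 0.57 and 0.48 without GFP-RFP+ replicate 2 and GFP-RFP- replicate 4. Il7r was most like Cog7 (r = 0.89) and Il21r like Ucp2 (r = 0.83, or 0.37 without its 2 most extreme arrays). Among the receptors themselves Il4ra and Il15ra correlated at r = 0.70, and at 0.60 after group means were removed, while Il2rb and Il21r correlated at 0.60, or 0.13 without the 2 arrays most extreme for Il2rb. Points of these correlations share the scaling of the array.

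Calls among genes of the same pathway stand beside 13.2% of all genes called in the averaged comparison. Of the cytokines of the family, Il2 and Il9 were tested and 0 were called; Il9 differed by 2.10 ± 0.84 (SE) between GFP+RFP- and GFP-RFP- cells (limma, adjusted p = 0.919) and by 1.54 ± 0.61 in the averaged comparison (adjusted p = 0.0997). Of 6 signal transducers tested, 1 was called, which with 6 genes is little different from that share. The call was for a lower level, as for 956 of the 20620 genes tested. Stat5b, a transcription factor that acts downstream of the IL-2 receptor, was lower by the averaged comparison (-3.71 ± 0.98, adjusted p = 0.0234). Stat5b averaged -6.68 ± 3.89 (SD, n = 4) in GFP+RFP+ cells, -8.69 ± 1.78 (n = 5) in GFP-RFP+ cells, -4.61 ± 1.41 (n = 5) in GFP+RFP- cells and -3.35 ± 1.42 (n = 5) in GFP-RFP- cells. It was above background on 2 of 4 arrays in GFP+RFP+ cells and 2 of 5 in GFP-RFP+ cells, and on 5 of 5 in each RFP- group. All 6 transducers had averaged differences below 0, with a median of -2.10, against -0.08 over all genes tested.

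The averaged comparison called 13.2% of all genes, and GFP-RFP+ against GFP-RFP- cells 1.7%. Of 8 STAT5 targets and feedback inhibitors, 0 were called in any comparison, which with 8 genes is little different from these shares. The smallest p belonged to Pim1, a kinase gene, in GFP-RFP+ against GFP-RFP- cells (-6.42 ± 2.48 SE, limma adjusted p = 0.149). Of 11 partner and related receptors tested, Il1rl1, the IL-33 receptor found on subsets of Treg, was higher in GFP-RFP+ than in GFP-RFP- cells (2.23 ± 0.50, adjusted p = 0.0372) and in the averaged comparison (1.67 ± 0.37, adjusted p = 0.0113). Its probe has a run of 3 repeat units. Il6st, the shared gp130 chain of IL-6 family receptors, was lower in the averaged comparison (-6.01 ± 1.33, adjusted p = 0.0118), and it was above background on 2 of 4 arrays in GFP+RFP+ cells and 1 of 5 in GFP-RFP+ cells, against 5 of 5 in each RFP- group. Of 10 Treg genes tested, Gpr83, a receptor gene known from Treg, was called higher in GFP-RFP+ than in GFP-RFP- cells (adjusted p = 0.0331). It was above background on 4 of 5 against 0 of 5 arrays, and on 1 array in GFP+RFP- cells. Gpr83 thus passed the 4-array filter through the group in which it was called high. Formed as for Il9r, its fold was 24.5. This is not a lower bound either, since GFP-RFP+ cells included a signal not above background. Its GFP+RFP+ minus GFP+RFP- difference was -1.28 ± 1.56 (adjusted p = 0.707; none of the 4 arrays in GFP+RFP+ cells cleared background), and the interaction was -8.10 ± 2.14 (adjusted p = 0.817). The 10 genes went both ways between GFP-RFP+ and GFP-RFP- cells, 6 above 0 and 4 below, with Ctla4 at -3.64 ± 1.98 (adjusted p = 0.282).

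A few markers of other cells were called in the averaged comparison, which called 13.2% of all genes. Over the B cell list, with 5 of 6 markers tested, the calls went opposite ways. Cd79b was lower (-6.19 ± 1.10 SE, limma adjusted p = 0.00422) and Blnk higher (2.25 ± 0.65, adjusted p = 0.0325). Arrays above background in GFP+RFP+, GFP-RFP+, GFP+RFP- and GFP-RFP- cells numbered 2, 2, 5 and 5 for Cd79b and 4, 3, 2 and 1 for Blnk. The summed linear level of the 6 B cell markers ran from 0.14 to 0.968 in GFP+RFP+ cells, 0.0454 to 1.18 in GFP-RFP+ cells, 0.175 to 2.13 in GFP+RFP- cells and 0.334 to 1.30 in GFP-RFP- cells. Over the myeloid list, Itgam was higher (1.14 ± 0.27, adjusted p = 0.0148), and its probe holds the 12-base repeat in a run of 10 units. With Itgam the myeloid sum was 12.4 to 26.3 in GFP+RFP+ cells, 8.10 to 23.9 in GFP-RFP+ cells, 7.80 to 12.6 in GFP+RFP- cells and 7.17 to 8.86 in GFP-RFP- cells. Without Itgam it was 0.257 to 1.27 in GFP+RFP+ cells, 0.415 to 1.48 in GFP-RFP+ cells, 0.318 to 1.65 in GFP+RFP- cells and 0.675 to 1.94 in GFP-RFP- cells. Itgax was above background on no array. Of 7 NK and CD8 T cell markers, 5 were tested and 0 were called; the sum of the 7 ran from 0.0151 to 1.40 in GFP+RFP+ cells, 0.289 to 3.38 in GFP-RFP+ cells, 0.261 to 0.944 in GFP+RFP- cells and 0.806 to 1.33 in GFP-RFP- cells. The 8 T cell markers, of which 0 were called, summed to 4.03 to 6.97 in GFP+RFP+ cells, 8.64 to 17.7 in GFP-RFP+ cells, 5.77 to 10.5 in GFP+RFP- cells and 6.85 to 8.01 in GFP-RFP- cells. The part of these markers in the receptor values was not tested.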

How the data were processed

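Total RNA was extracted, cDNA was amplified by global PCR and Cy3-labelled, and each sample was hybridized to 1 array, per the labels' protocols. The deposited scanner values are linear intensity values from Agilent Feature Extraction 10.7.3.1 with background subtracted and no scaling between arrays, per the file headers. The authors' deposited series table holds log2 values with a normalization not given in the sources used here (column medians 3.21 to 3.226, r = 0.949 to 1 with the log2 scanner signal). Coordinates and probe sequences are those of the files (mm9). Control spots and non-uniform or outlier spots (3296 over all arrays) were left out, and repeated spots averaged. Each signal was divided by the 75th percentile of its array over the 6612 probes that every array detected well above background. A probe had to be well above background on 4 or more arrays (28101 were), and the probe with the highest mean stood for its gene, which left 20620 genes. 1 limma model (limma 3.58.1, R 4.3.3) with group means was fitted to all 19 arrays, with calls at adjusted p under 0.05 (Benjamini-Hochberg over all genes within a comparison). Intervals are 95% intervals of the fit. With 4 or 5 arrays a group, their number limits the precision.

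All 8 receptors are reported with every probe. Other genes named are those of the reporters, list members called or with the smallest p, and the 2 genes most like a receptor. The members, the gene lists and the tests were chosen with earlier results of these data known. The search for the repeat, the fit without its probes and the fits within scan days were added after the values were seen. Alternatives were the percentile over all probes, normexp with an offset of 50, quantile normalization, the series table, other filters and probe rules, a common floor, blocks for replicate number, slide and scan day, fits within slides and scan days, a covariate for the percent of probes detected, dropping the 3 arrays under 30%, array weights, and leaving out each array. The fit was run on simulated data, in which the deviations of each gene were shuffled separately over the arrays. Known differences were added to GFP-RFP+ arrays and read against GFP-RFP- arrays only. Such data hold no signal shift shared by an array, and the averaged comparison was not checked. Scan days were uneven over the groups. GFP+RFP+ replicates 1 and 5 were scanned on day 3, while GFP+RFP- arrays were scanned on days 1 and 2 only. These groups therefore could not be compared within day 3. The titles use the same replicate numbers in all groups. Of 27 same-numbered pairs, 0 correlated over 0.1 in their deviations (range -0.07 to 0.09), against 4 of 108 other pairs. Low correlations between such variable arrays cannot exclude a shared animal or pool behind a number.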

Additional observations from a re-analysis of the deposited data

Results flagged for a closer look

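Within each of the 32 sets formed by a receptor and a reporter group, the array farthest from the others was set against the range of the group. By more than Dixon's 95% limit, 5 values stood apart. The sets share arrays and some hold values at background, so the nominal rate of 1 in 20 does not apply to this count. Il2ra was at -3.43 on GFP-RFP+ replicate 3, with the nearest other replicate at -9.81. It was at -5.64 on GFP-RFP- replicate 2, with the nearest at -10.08. Both arrays were the 1 array of their group on which Il2ra was well above background. Il2rb was at -3.57 on GFP-RFP+ replicate 2, with the nearest at 0.89, and Il21r had its lowest level (-4.12) on the same array. On GFP+RFP- replicate 4, Il2rg was at -11.22 with the nearest at -0.90, and Il7r was at -11.22 with the nearest at -2.72; neither was well above background there.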

How the results depend on the processing

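For RFP+ against RFP- cells averaged over GFP, 1 receptor was called, among 2732 of 20620 genes. For the other settings the number of all genes called stands in brackets. 2 receptors were called with the percentile over all probes (6328), no filter on dim probes (9952 of 35019) and a common floor (2428). The slide (3894) or the scan day (3292) as a block also called 2. So did the fit without arrays under 30% of probes detected (2311) and array weights (4937). With probes above background on all arrays (1704 of 5799), 2 of the 4 receptors tested were called, and normexp (7827) called 3. Most of these settings called a larger share of all genes too. None (0) were called with the mean of a gene's probes (2575), within slide 1 (151), within scan day 2 (233) or with a covariate for the percent detected (26). Within slides 2 and 3 and within scan day 1, 0 genes of any kind were called, so 0 receptors there is no result about them. Lastly, 0 receptors were called without the probes holding the repeat (2435 of 20507). Without that last set Il15ra reversed to -0.39 (adjusted p = 0.632), since its other probe then stands for the gene. Quantile normalization (5247) and the series table (5456) each called 1 receptor, Il4ra in place of Il15ra. Leaving out 1 array gave 1 to 2 receptors: Il15ra kept its call in 19 of 19 such fits (0.89 to 1.06), and Il4ra gained one in 3, without GFP+RFP+ replicate 5, GFP-RFP+ replicate 4 or GFP+RFP- replicate 4. For GFP-RFP+ against GFP-RFP- cells, 1 was called with the percentile over all probes (4031), normexp (4749), all-array detection (600 of 5799) and the common floor (721). The main analysis called 351 genes there. For GFP+RFP+ against GFP+RFP- cells, 2 were called with normexp (4888), all-array detection (748 of 5799), the common floor (535) and array weights (1702). The main analysis called 42 genes there. The cause was not tested. With the replicate block the counts stayed at 0, 0, 0, 0, 1 and 0 over the 6 comparisons. Whether equal numbers pair the samples is not known from the labels, and 6 of 19 arrays correlated best with their own number.

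Counts over all genes moved more. The averaged comparison called 2732 genes and 0 to 9952 under other settings (1553 to 3824 leaving out 1 array), with 65% higher, against 87.8% with the percentile over all probes, 86.1% with normexp and 79.8% with quantile normalization; the median difference of all genes was -0.08, 0.85, 0.45 and 0.22 under those 4 scalings. GFP-RFP+ against GFP-RFP- called 351 genes (0 to 4749 elsewhere), GFP+RFP+ against GFP+RFP- 42 (0 to 4888), GFP+RFP- against GFP-RFP- 2 (0 to 21) and GFP+RFP+ against GFP-RFP+ 1 (0 to 20). Genes near background, such as Il2ra, Il9r and Il2rg on 5 arrays, have only a bound there, which limits their differences.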
